A study of Mus musculus with 33 samples.

Results

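Transcripts of 10 genes of receptor tyrosine kinase signalling were followed through the reprogramming of mouse cells: the platelet-derived growth factor (PDGF) receptors Pdgfra and Pdgfrb, their ligands Pdgfa, Pdgfb and Pdgfc, the receptor Kit and its ligand Kitl, and the receptors Met, Egfr and Erbb3. The genes were chosen by name from the symbols in the deposited expression tables, and all 10 were found among the 37620 genes listed. The study reprogrammed secondary cells carrying the factors Sox2, Klf4 and Myc (SKM) by adding doxycycline in mouse ES cell medium, and asked how Sox2 and Klf4 act in that process. It comprised 33 samples, of which the 22 RNA-seq libraries were used here.

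Day 0 was the starting culture, and the groups of days 2, 4, 8 and 12 were SKM secondary cells under doxycycline. The cells were either mouse embryonic fibroblasts (MEF), kept in serum-containing DMEM before induction, or neural progenitor cells (NPC). Doxycycline was added in ES cell medium. In comparisons with day 0, a change of medium therefore cannot be told apart from SKM induction. Each origin and day had 2 libraries. The titles mark the MEF libraries of days 4, 8 and 12 and the NPC libraries of days 8 and 12 with GFP, and the design names the EGFP-positive populations. Sorted cells were lysed in TRIzol and cultured cells were extracted with RNeasy columns, so that sorting and extraction cannot be told apart from day where a titled GFP group is set against one without it: MEF day 4 over day 2, NPC day 8 over day 4, day 12 over day 0 and day 12 over the lines. The pluripotent lines were R1_ESC, an established mouse embryonic stem cell line, and SKM_iPSC, an induced line made with the same 3 factors, with 1 library each. The sample stage recorded for the NPC libraries titled day 2 and day 4 reads day 0 and day 2, and the days in the titles were used. Libraries held 15902838 to 20102260 counts. Values are in CPM, read counts scaled to library size with TMM factors, and an interval given for 1 library covers counting error only. All 10 genes passed the low-count filter of every fit.

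PDGF receptors are surface kinases that mesenchymal cells use to read PDGF dimers. Pdgfra binds dimers of the A, B and C chains, whereas Pdgfrb mainly binds dimers that contain the B chain. Kit is the related receptor of germ cells, mast cells, melanoblasts and blood progenitors, and binds its ligand Kitl (stem cell factor). Met is the receptor of hepatocyte growth factor, Egfr of epidermal growth factor and its relatives, and Erbb3 is a neuregulin receptor with little kinase activity of its own that signals in partnership with other ERBB receptors. All feed into the RAS-MAPK and PI3K-AKT pathways.

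Upstream sequences were printed for 4 receptors that the results turn on, Pdgfra, Egfr, Met and Kit. Pdgfra and Egfr fell by day 2 in both origins, and Met rose in both. The log2 response of Kit was called different between origins, a call that several alternative fits lost. Windows run from 250 bases before to 50 bases after the RefSeq start on the plus strand of GRCm38.p6, so that the last bases lie in the first exon. Capitals mark matches on either strand to CACCC, a core that Klf factors can bind, whose reverse reads GGGTG. They also mark GGGCGG, the GC box, and its reverse, which is the letters CCGCCC. No match overlapped another in these windows.
Pdgfra, chr5:75152001-75152300: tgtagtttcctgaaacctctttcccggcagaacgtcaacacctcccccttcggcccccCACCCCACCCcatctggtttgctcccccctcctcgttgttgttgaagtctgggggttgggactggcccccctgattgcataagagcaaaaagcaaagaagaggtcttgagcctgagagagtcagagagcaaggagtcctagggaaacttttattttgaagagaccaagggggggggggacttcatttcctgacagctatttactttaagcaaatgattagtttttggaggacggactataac
Kit, chr5:75574737-75575036: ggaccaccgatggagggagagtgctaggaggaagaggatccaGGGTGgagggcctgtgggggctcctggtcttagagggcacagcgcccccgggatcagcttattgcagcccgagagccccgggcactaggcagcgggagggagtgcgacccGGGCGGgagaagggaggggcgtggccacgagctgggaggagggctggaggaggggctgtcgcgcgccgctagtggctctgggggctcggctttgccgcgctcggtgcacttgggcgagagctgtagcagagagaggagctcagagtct
Met, chr6:17463707-17464006: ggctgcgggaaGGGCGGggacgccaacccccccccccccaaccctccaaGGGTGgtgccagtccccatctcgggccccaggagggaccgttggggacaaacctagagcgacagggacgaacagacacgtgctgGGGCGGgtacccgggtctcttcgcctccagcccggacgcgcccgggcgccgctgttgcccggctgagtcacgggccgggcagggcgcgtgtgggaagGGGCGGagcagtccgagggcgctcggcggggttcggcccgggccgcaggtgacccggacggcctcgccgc
Egfr, chr11:16751953-16752252: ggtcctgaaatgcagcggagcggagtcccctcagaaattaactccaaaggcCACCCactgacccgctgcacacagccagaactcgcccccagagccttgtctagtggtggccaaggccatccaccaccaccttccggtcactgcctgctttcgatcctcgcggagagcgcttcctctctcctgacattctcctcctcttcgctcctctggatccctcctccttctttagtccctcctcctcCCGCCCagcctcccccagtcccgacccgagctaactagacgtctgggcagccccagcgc
The RefSeq table held 9 windows for 7 of the genes (Pdgfra, Pdgfa, Pdgfc, Kit, Kitl, Met and Egfr). The 2 Kit windows overlap and count once here, which leaves 8. CACCC occurred in 7 of the 8 and GGGCGG in 6, against 57.5% and 35.7% of all 32851 promoter windows in the table. ACAAAG and ACAATG, cores that Sox factors can bind, had 1 match each, in the Pdgfc window and in a Pdgfa window, against 18.7% and 12.6% of all windows. The Pdgfra window was 51% G and C, against a median of 52.7% over all windows. The other windows of these genes all lay above that median, from 55% (Pdgfc) to 75.7% (Met). The shares of windows with a motif were not matched for G and C content. These letter matches do not show binding. Pdgfra and Kit are neighbours on chromosome 5, with no other protein-coding gene between them, and Kdr, which encodes a vascular endothelial growth factor receptor, follows Kit.

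Across the courses, the PDGF receptors, Pdgfc and Egfr fell by day 2, and Met, Erbb3 and Pdgfa rose. Among the 10 genes, 4 were called higher and 4 lower on day 2 than on day 0 in MEF, where edgeR called 45% of 15246 genes in either direction at an adjusted p under 0.05. In NPC, 3 were higher and 5 lower on day 2 than on day 0, where 35.6% of 15565 genes were called. Pdgfa, Met and Erbb3 were called higher and Pdgfra, Pdgfrb, Pdgfc and Egfr lower in both origins, and no gene was called in opposite directions. Over all genes, 20.9% were called higher and 24.1% lower in MEF, and 18.2% higher and 17.3% lower in NPC.

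**Figure D1:**
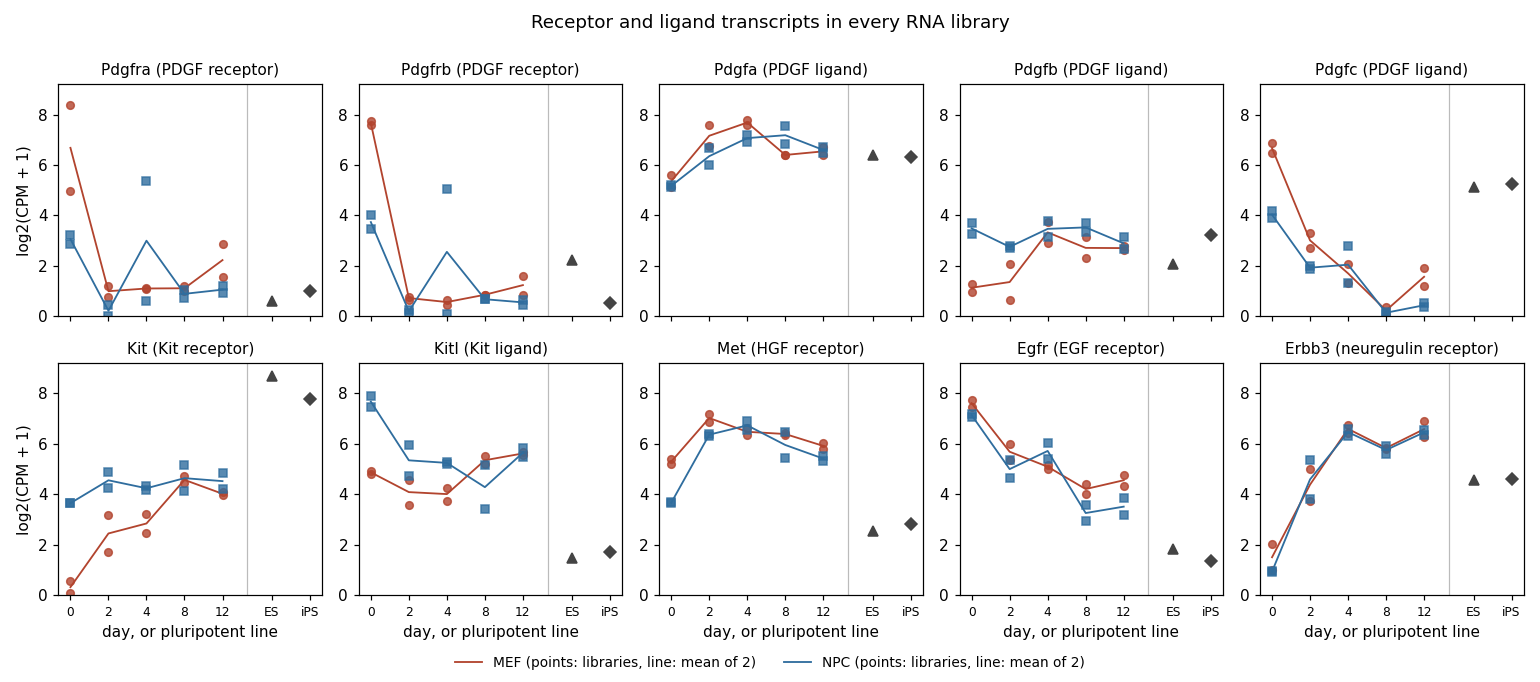
Transcript level of the 10 genes on a log2(CPM + 1) axis, against day for MEF (circles) and NPC (squares) and for the pluripotent lines R1_ESC (triangle, ES) and SKM_iPSC (diamond, iPS). Points are libraries and lines join the means of 2; both PDGF receptors drop after day 0, with 1 high NPC library on day 4, and Kit is highest in the lines.

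Within the groups, 2 pairs of libraries stood apart for the PDGF receptors. The NPC libraries of day 4 are headed feeder (replicate 1) and nofeeder (replicate 2) in the deposited table, a distinction that the sample labels do not carry. Pdgfra had 40.8 CPM in the feeder library, with a 95% exact Poisson interval of 38.1 to 43.7, against 0.521 CPM in the nofeeder library (0.260 to 0.932). Pdgfrb had 31.9 CPM (29.5 to 34.4) in the feeder library, from 650 counts, against 0.0473 CPM (0.0012 to 0.264) in the nofeeder library, from 1 count. By size of the difference in log2(CPM + 1), Pdgfrb ranked 23 and Pdgfra 28 of 11244 genes averaging 5 CPM or more. Pdgfc followed with 5.88 CPM against 1.47 CPM, and Hgf, the ligand of Met, with 6.37 CPM against 0.

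The 10 fibroblast markers summed to 3344 CPM in the feeder library and 327 CPM in the nofeeder library, and 8 of the 10 were higher in the feeder library by over 2 log2 units, against 1.4% of the 11244 genes. Among 12 macrophage markers the sum was 118 CPM, with all 12 having a count, against 12.3 CPM with 8 having a count and Tyrobp, C1qa, C1qb and C1qc at 0. Of the neural progenitor markers, Sox2, which is also a reprogramming factor, had 1423 CPM in the feeder library against 1189 CPM, and the other 8 summed to 35.5 CPM against 75.4 CPM. The oligodendrocyte precursor markers, a cell type that also uses Pdgfra, summed to 110 CPM against 136 CPM. The part of these other cells in the receptor values was not tested. Called results of Pdgfra, Pdgfc and Egfr in NPC day 8 over day 4 are given with and without the feeder library. That library also entered the fits behind the other NPC comparisons and those between origins. For called results there, fits without it are given for Pdgfra and Pdgfrb but not for Pdgfc and Egfr. Kit, Kitl, Met and Erbb3 differed by less than 0.5 log2 units in the same pair.

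In the day 0 MEF pair, Pdgfra had 333 CPM in replicate 1 and 30.6 CPM in replicate 2, while Pdgfrb had 215 and 190 CPM. Fibroblast markers summed to 36572 and 16750 CPM in these replicates, and smooth muscle and pericyte markers to 3321 and 10235 CPM. Of 11244 genes, 216 differed by over 2 log2 units in this pair and 191 in the day 4 NPC pair. The other pairs ran from 1 (day 8 MEF) to 127 (day 8 NPC). The median absolute difference was 0.446 log2 units in the day 0 MEF pair and 0.294 in the day 4 NPC pair. It was largest, at 0.476, in the day 8 NPC pair, so over all genes these 2 pairs were not the only ones that differed. In bulk RNA, fewer cells of a type and less transcript per cell cannot be told apart.

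**Figure D2:**
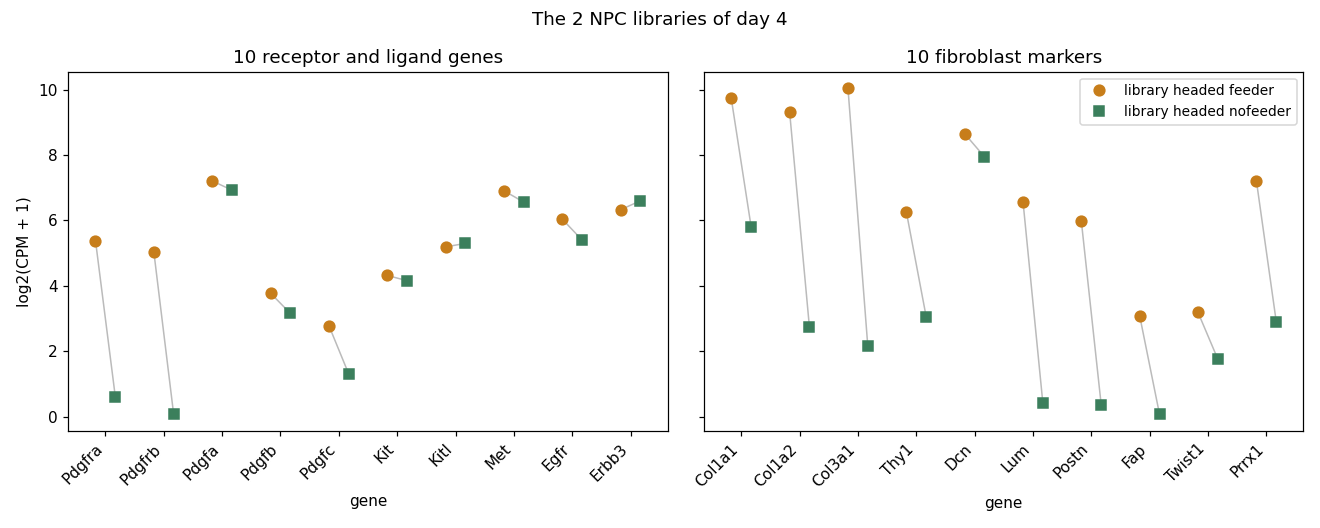
The 2 NPC libraries of day 4 on a log2(CPM + 1) axis, for the 10 receptor and ligand genes (left panel) and 10 fibroblast markers (right panel); circles are the library headed feeder, squares the library headed nofeeder, and each symbol is 1 library. Pdgfra and Pdgfrb separate the libraries as most fibroblast markers do, while Kit, Kitl, Met and Erbb3 lie close together.

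Pdgfra, the receptor that binds the A, B and C chains, fell by day 2 in both origins. Pdgfra CPM in MEF was 333 and 30.6 (day 0), 0.717 and 1.30 (day 2), 1.09 and 1.2 (day 4), 1.31 and 1.01 (day 8), and 6.38 and 1.96 (day 12). Both day 0 libraries lay above every later MEF library. The log2 fold change of day 2 over day 0 was -7.62 ± 1.11 (SE; adjusted p = 0.000402, edgeR), and it was -5.08 without MEF day 0 replicate 1 (adjusted p = 0.000619). Pdgfra on day 12 over day 0 was -5.52 ± 0.98 (adjusted p = 0.000978), or -2.97 without the same library (adjusted p = 0.00496).

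Pdgfra CPM in NPC was 8.44 and 6.37 (day 0), 0 and 0.345 (day 2), 40.8 and 0.521 (day 4), 0.657 and 1.06 (day 8), and 0.883 and 1.28 (day 12). The 0 allows up to 0.142 CPM (3 counts). Day 2 lay below day 0 in both libraries, with a log2 fold change of -5.40 ± 1.62 (adjusted p = 0.024). That call was lost without NPC day 0 replicate 1, NPC day 0 replicate 2 or NPC day 2 replicate 1 (adjusted p = 0.0593 to 0.135); leaving out NPC day 2 replicate 2 gave -10.14, and leaving out the feeder library gave an adjusted p of 0.00157. Day 8 over day 4 was called lower at -4.60 ± 1.46 (adjusted p = 0.0321), but was 0.74 without the feeder library (adjusted p = 0.616); the call was also lost without either day 8 library (adjusted p = 0.0839 and 0.17). Day 4 over day 2, at 6.91 ± 1.69, missed the threshold (adjusted p = 0.0538), and was 1.61 without the feeder library (adjusted p = 0.596). Pdgfra on day 12 over day 0 was -2.72 ± 1.35 (adjusted p = 0.117) with the feeder library in the fit and -2.74 ± 0.77 (adjusted p = 0.013) without it.

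Pdgfrb, the receptor of B-chain dimers and a marker of pericytes and fibroblasts, also fell by day 2 in both origins. Pdgfrb CPM in MEF was 215 and 190 (day 0), 0.717 and 0.578 (day 2), 0.576 and 0.378 (day 4), 0.797 and 0.807 (day 8), and 2.06 and 0.804 (day 12). Pdgfrb on day 2 over day 0 was -8.42 ± 0.84 (adjusted p = 6.31e-05), the largest decrease among the 10 genes in MEF, and day 12 over day 0 was -7.21 ± 0.78 (adjusted p = 4.62e-05). Pdgfrb CPM in NPC was 15.3 and 9.87 (day 0), 0.189 and 0.0984 (day 2), 31.9 and 0.0473 (day 4), 0.591 and 0.596 (day 8), and 0.552 and 0.375 (day 12). Pdgfrb on day 2 over day 0 was -6.38 ± 1.93 (adjusted p = 0.0244) and day 12 over day 0 was -4.71 ± 1.71 (adjusted p = 0.0402). Leaving out any single library of the groups compared took the first call to 0.0562 to 0.127 and the second to 0.0701 to 0.173, while leaving out the feeder library gave adjusted p-values of 0.001 and 0.00144. NPC day 8 over day 4 was -4.75 ± 1.71 (adjusted p = 0.0515), passed with DESeq2 (0.0243), in the joint fit (0.0169) and without the filter (0.00574), and was 3.50 without the feeder library (adjusted p = 0.134).

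Of the 10 fibroblast markers, 9 summed in MEF to 16743 to 36506 CPM on day 0, 692 to 850 CPM on day 2 and 45.9 to 363 CPM on day 12, and all 10 kept a count on day 12. Dcn, the remaining one, went the other way, at 159 and 101 CPM on MEF day 12 against 66.4 and 6.87 CPM on MEF day 0. In NPC the 9 summed to 61.9 to 148 CPM on day 2 and 418 to 559 CPM on day 0, whereas Dcn had 98.8 and 41.8 CPM on day 2 and 12.0 and 11.8 CPM on day 0. Oligodendrocyte precursor markers in NPC summed to 172 to 214 CPM on day 2 and 1548 to 1606 CPM on day 0. On NPC day 0 all 7 had a count and 5 reached 1 CPM. The part of these cell types in the receptor decrease was not tested.

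Of the PDGF ligands, Pdgfa encodes the A chain. Pdgfa CPM in MEF was 33.7 and 47.3 (day 0), 189 and 107 (day 2), 190 and 221 (day 4), 82.9 and 84.0 (day 8), and 103 and 82.6 (day 12). Pdgfa CPM in NPC was 34.2 and 35.9 (day 0), 102 and 63.6 (day 2), 147 and 121 (day 4), 185 and 112 (day 8), and 104 and 88.5 (day 12). Every library after day 0 lay above both day 0 libraries of its origin, and the highest library of the series was 6.55 times the lowest, the narrowest range among these genes. Pdgfa on day 2 over day 0 was 1.72 ± 0.28 in MEF (adjusted p = 0.000795) and 1.24 ± 0.30 in NPC (adjusted p = 0.00887). The NPC call was lost without either day 0 library or day 2 replicate 1 (adjusted p = 0.0642 to 0.0854). MEF day 8 over day 4 was -1.32 ± 0.28 (adjusted p = 0.0092), but leaving out any library of either day gave 0.05 to 0.0766. Pdgfa on day 12 over day 0 was 1.13 ± 0.28 in MEF (adjusted p = 0.00628) and 1.49 ± 0.31 in NPC (adjusted p = 0.00198).

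Pdgfc, whose chain is secreted in a latent form and acts through Pdgfra, fell in both origins and was higher in the lines. Pdgfc CPM in MEF was 87.2 and 116 (day 0), 8.82 and 5.58 (day 2), 3.20 and 1.51 (day 4), 0.285 and 0.0672 (day 8), and 1.32 and 2.77 (day 12). Pdgfc CPM in NPC was 16.8 and 14 (day 0), 2.64 and 2.95 (day 2), 5.88 and 1.47 (day 4), 0.0657 and 0.132 (day 8), and 0.276 and 0.428 (day 12). The day 8 libraries were the lowest of each origin. Pdgfc on day 2 over day 0 was -3.97 ± 0.48 in MEF (adjusted p = 0.00016) and -2.46 ± 0.55 in NPC (adjusted p = 0.0056). MEF day 4 over day 2 was -1.57 ± 0.47 (adjusted p = 0.0363), which missed the threshold without any one of the 4 libraries (0.0524 to 0.225) and with only those groups fitted (0.0528). Day 8 over day 4 was -3.65 ± 0.67 in MEF (adjusted p = 0.00507; 0.052 without day 8 replicate 2) and -5.14 ± 0.79 in NPC (adjusted p = 0.00133), or -3.78 without the feeder library (adjusted p = 0.00307). Day 12 over day 8 was 3.49 ± 0.67 in MEF (adjusted p = 0.0162), a call that rested on low counts and was lost without either day 8 library or day 12 replicate 2 (adjusted p = 0.104 to 0.161). Pdgfc was the only one of the 10 genes called in that comparison, where 14% of genes were (8.5% higher and 5.52% lower). Pdgfc on day 12 over day 0 was -5.70 ± 0.53 in MEF (adjusted p = 1.94e-05) and -5.38 ± 0.67 in NPC (adjusted p = 6.91e-05).

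Pdgfb, the B chain, was not called on day 2 in either origin. Pdgfb CPM in MEF was 0.967 and 1.43 (day 0), 3.14 and 0.578 (day 2), 6.47 and 12.5 (day 4), 7.74 and 3.90 (day 8), and 5.91 and 5.13 (day 12). Pdgfb CPM in NPC was 8.57 and 12.0 (day 0), 5.90 and 5.56 (day 2), 12.7 and 7.91 (day 4), 9.13 and 12.1 (day 8), and 7.73 and 5.3 (day 12). In MEF the day 2 libraries spanned both day 0 libraries. MEF day 4 over day 2 was 2.38 ± 0.77 (adjusted p = 0.0463) and day 12 over day 0 was 2.13 ± 0.78 (adjusted p = 0.0395). The first call was lost without day 2 replicate 2 or either day 4 library (0.0829 to 0.235) and was 4.05 without day 2 replicate 1; the second was lost without any one of its 4 libraries (0.0722 to 0.15). No day comparison of Pdgfb passed the threshold in NPC.

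**Figure D3:**
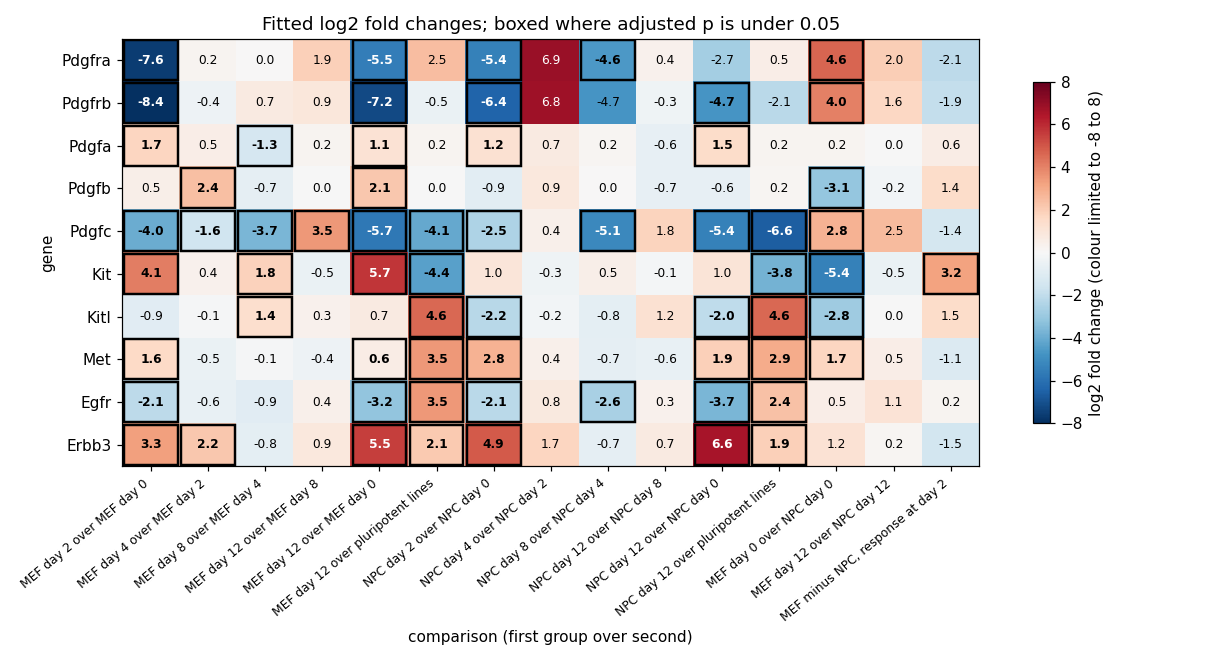
Fitted log2 fold changes (colour and printed value) of the 10 genes in 15 comparisons, first-named group over second; boxes mark adjusted p under 0.05. The first column of each origin shows the receptors Pdgfra, Pdgfrb and Egfr and the ligand Pdgfc lower on day 2, and Pdgfa, Met and Erbb3 higher.

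Kit was nearly absent from starting fibroblasts and present in every other group. Kit CPM in MEF was 0.458 and 0.0572 (day 0), 7.94 and 2.31 (day 2), 4.55 and 8.24 (day 4), 20.6 and 25.2 (day 8), and 15.9 and 14.6 (day 12). The day 0 values came from 9 counts and 1 count. Kit CPM in NPC was 11.6 and 11.5 (day 0), 17.9 and 28.2 (day 2), 18.9 and 16.9 (day 4), 16.3 and 34.9 (day 8), and 17.4 and 27.7 (day 12). Every later library lay above both day 0 libraries in each origin. In MEF, day 2 over day 0 was 4.08 ± 0.78 (adjusted p = 0.00183), or 6.15 without day 0 replicate 1, and day 12 over day 0 was 5.74 ± 0.77 (adjusted p = 0.000167). MEF day 8 over day 4 was 1.82 ± 0.56 (adjusted p = 0.0418), a call lost without any one of the 4 libraries (0.085 to 0.266). In NPC, day 2 over day 0 was 0.99 ± 0.40 (adjusted p = 0.0742) and day 12 over day 0 was 1.01 ± 0.40 (adjusted p = 0.0566). Both passed in edgeR with only the groups compared (0.0285 and 0.0138) and with a replicate block (0.0469 and 0.0351).

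The difference between the responses of MEF and NPC at day 2 was tested as an interaction over all 22 libraries. Kit was the only one of the 10 genes called, where 8.31% of 16188 genes were (4.2% higher and 4.11% lower). Its MEF response exceeded its NPC response by 3.20 ± 0.91 log2 units (adjusted p = 0.0397). In CPM the rise was larger in NPC. Mean Kit went from 0.258 CPM on day 0 to 5.13 CPM on day 2 in MEF, and from 11.5 to 23.0 CPM in NPC. The call was lost in 6 of the 8 fits that left out a library of the 4 groups (without MEF day 0 replicate 2, MEF day 2 replicate 1, either NPC day 0 library or either NPC day 2 library; adjusted p = 0.06 to 0.217), and when only those groups were fitted (adjusted p = 0.136). Without MEF day 0 replicate 1 the difference was 5.29, and without MEF day 2 replicate 1 it was 2.06. The sign was positive in every one of these fits.

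Kit also marks mast cells and melanoblasts. Of 7 mast cell markers, Hdc, which encodes histidine decarboxylase, was the one that moved with Kit in MEF. It had 0.102 and 0.286 CPM at day 0, 18.7 and 16.4 at day 8, and 10.5 and 4.27 at day 12. Fcer1a and Mcpt4 were at 0 in all libraries, and Cpa3, the mast cell carboxypeptidase, was at 0 in all but 3. The melanocyte markers summed to 3.37 to 3.43 CPM on MEF day 12 and 8.07 to 11.5 CPM on MEF day 0, with Dct at 0 in every MEF library. The part of such cells in the Kit values was not tested.

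Kitl, the ligand of Kit, started high in neural progenitors. Kitl CPM in NPC was 237 and 175 (day 0), 25.5 and 61.5 (day 2), 35.5 and 38.4 (day 4), 9.72 and 34.3 (day 8), and 43.4 and 55.4 (day 12). Kitl on day 2 over day 0 was -2.25 ± 0.51 (adjusted p = 0.00609; 0.0547 without day 2 replicate 1), and day 12 over day 0 was -2.02 ± 0.51 (adjusted p = 0.00648; 0.0575 without day 12 replicate 1). Kitl CPM in MEF was 27 and 29.6 (day 0), 11 and 23.0 (day 2), 12.4 and 18.2 (day 4), 35.8 and 44.2 (day 8), and 46.4 and 50.1 (day 12). MEF day 8 over day 4 was 1.37 ± 0.35 (adjusted p = 0.0198), a call lost without day 4 replicate 1 or either day 8 library (0.0655 to 0.168) and in the joint fit (0.0515). MEF day 2 over day 0 was -0.88 ± 0.35 (adjusted p = 0.059). Of the 9 neural progenitor markers, the 8 other than Sox2 summed to 38.4 to 62.3 CPM on NPC day 12 and 2943 to 2944 CPM on NPC day 0, a shift whose part in the Kitl values was not tested.

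Met, the hepatocyte growth factor receptor, rose in both origins by day 2. Met CPM in MEF was 35.4 and 41.4 (day 0), 117 and 143 (day 2), 80.5 and 96.8 (day 4), 80.4 and 85.5 (day 8), and 65.1 and 54.3 (day 12). Met CPM in NPC was 11.5 and 11.9 (day 0), 84.1 and 78.9 (day 2), 119 and 93.4 (day 4), 42.6 and 87.5 (day 8), and 38.5 and 45.1 (day 12). No later library overlapped the day 0 libraries of its origin. Met on day 2 over day 0 was 1.61 ± 0.22 in MEF (adjusted p = 0.000299) and 2.80 ± 0.32 in NPC (adjusted p = 0.000127), and the difference of these responses was -1.08 ± 0.39 (adjusted p = 0.102). Met on day 12 over day 0 was 1.88 ± 0.31 in NPC (adjusted p = 0.000518). In MEF it was 0.57 ± 0.22 (adjusted p = 0.0466), a call that was lost with RLE scaling, no filter, fewer groups in the fit or the joint fit (0.0598 to 0.217) and without either day 0 library or day 12 replicate 1 (0.0557 to 0.173). The median log2 change of all genes in that comparison was 0.10.

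Egfr, the epidermal growth factor receptor, fell by day 2 in both origins and was lower still on day 12. Egfr CPM in MEF was 177 and 215 (day 0), 40.3 and 63.3 (day 2), 31.2 and 35.1 (day 4), 15.2 and 20.03 (day 8), and 19.3 and 26.2 (day 12). Egfr CPM in NPC was 135 and 145 (day 0), 24.1 and 39.7 (day 2), 64.8 and 41.2 (day 4), 6.63 and 10.9 (day 8), and 8.01 and 13.4 (day 12). Both origins were highest on day 0. Egfr on day 2 over day 0 was -2.06 ± 0.31 in MEF (adjusted p = 0.000484) and -2.14 ± 0.39 in NPC (adjusted p = 0.00182), with a difference between origins of 0.19 ± 0.49 (adjusted p = 0.899). NPC day 8 over day 4 was -2.61 ± 0.40 (adjusted p = 0.00132), or -2.21 without the feeder library (adjusted p = 0.00793). Egfr on day 12 over day 0 was -3.17 ± 0.33 in MEF (adjusted p = 3.27e-05) and -3.67 ± 0.42 in NPC (adjusted p = 3.75e-05).

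Erbb3, which is used by epithelial, neural crest and Schwann cells, had the largest increase of these genes from day 0 to day 12 in NPC. Erbb3 CPM in MEF was 3.05 and 0.973 (day 0), 31.4 and 12.4 (day 2), 85.6 and 107 (day 4), 55.3 and 56.9 (day 8), and 76.2 and 118 (day 12). Erbb3 CPM in NPC was 0.948 and 0.864 (day 0), 40.6 and 12.9 (day 2), 79.4 and 96.1 (day 4), 47.2 and 59.8 (day 8), and 80.2 and 94 (day 12). Every later library lay above the day 0 libraries of its origin. Erbb3 on day 2 over day 0 was 3.28 ± 0.54 in MEF (adjusted p = 0.000772) and 4.88 ± 0.51 in NPC (adjusted p = 7.54e-05). MEF day 4 over day 2 was 2.17 ± 0.49 (adjusted p = 0.012), lost without day 2 replicate 2 or day 4 replicate 3 (0.0945 and 0.0708), and NPC day 4 over day 2 was 1.73 ± 0.42 (adjusted p = 0.0515; 1.84 and 0.141 without the feeder library). Erbb3 on day 12 over day 0 was 5.51 ± 0.58 in MEF (adjusted p = 3.71e-05) and 6.61 ± 0.54 in NPC (adjusted p = 4.16e-06).

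Epithelial markers, like Erbb3, were higher on day 12 than on day 0. Their 9-gene sum in MEF was 2797 to 3654 CPM on day 12 and 5.29 to 7.09 CPM on day 0. In NPC it was 2335 to 2434 CPM on day 12 and 20.5 to 26.8 CPM on day 0, and all 9 had a count on day 12. From day 4 to day 8 the 2 moved apart. Mean Erbb3 went from 96.3 to 56.1 CPM in MEF and from 87.8 to 53.5 CPM in NPC, steps that were not called. The epithelial sum went from 1005 to 1921 CPM up to 3434 to 3741 CPM in MEF. In NPC it went from 587 to 739 CPM up to 3128 to 4021 CPM. Of the 7 melanocyte and neural crest markers, Dct, Tyr and Tyrp1 were at 0 in all day 12 libraries. Mitf had 1.16 to 2.09 CPM and Pmel 0.696 to 1.51 CPM in these libraries. Sox10 had 0.211 and 0.0503 CPM and Mlana 0.0527 and 0.151 CPM on MEF day 12, and both were at 0 on NPC day 12. On MEF day 0, Pmel had 0.254 and 0.286 CPM, Mitf 7.73 and 7.09 CPM and Sox10 3.51 and 0.629 CPM. The part of epithelial cells in the Erbb3 values was not tested.

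In the later steps fewer of these genes passed the threshold. The calls were 2 higher and 1 lower in MEF day 4 over day 2, where 23.1% of genes were called (11.4% higher and 11.8% lower). They were 2 higher and 2 lower in MEF day 8 over day 4, where 20.9% were called (11.8% higher and 9.18% lower). In NPC, day 4 over day 2 gave 0 calls among the 10 genes (2.91% of genes, 2.08% higher and 0.835% lower) by edgeR, although 4 had an unadjusted p under 0.05, and DESeq2 called Pdgfra, Pdgfrb and Erbb3. DESeq2 was not run without the feeder library. NPC day 8 over day 4 gave 3 lower calls (34.2% of genes, 16.3% higher and 17.9% lower), and day 12 over day 8 gave 0 (31%, 14.4% higher and 16.6% lower), by edgeR, with only Kitl at an unadjusted p under 0.05 (0.0333) and 0 called by DESeq2. From day 0 to day 12, 5 were higher and 4 lower in MEF (51.8% of genes, 26.9% higher and 24.9% lower), and 3 higher and 4 lower in NPC (48.5%, 24.7% higher and 23.9% lower).

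The starting populations differed in most of the 10 genes. Between MEF and NPC on day 0, 4 were called higher and 3 lower in MEF, where 34.2% of 16188 genes were called (16.5% higher and 17.7% lower). Pdgfra had 333 and 30.6 CPM in MEF against 8.44 and 6.37 CPM in NPC (log2 fold change 4.64 ± 1.30, adjusted p = 0.0113). Without MEF replicate 1 it was 2.08 (adjusted p = 0.227), and without either NPC library the call was lost too (0.077 and 0.0988). Pdgfrb was higher in MEF by 4.04 ± 1.22 (adjusted p = 0.0172; 0.0884 and 0.132 without either NPC library), and without the feeder library in the fit both calls had adjusted p-values under 0.001 (0.000937 for Pdgfra and 0.000132 for Pdgfrb). Pdgfc was higher in MEF by 2.75 ± 0.54 (adjusted p = 0.000971) and Met by 1.74 ± 0.28 (adjusted p = 0.000213). Lower in MEF were Kit at -5.38 ± 0.73 (adjusted p = 5.05e-05; -7.47 without MEF replicate 1), Pdgfb at -3.08 ± 0.68 (adjusted p = 0.00252) and Kitl at -2.84 ± 0.50 (adjusted p = 0.000443).

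Pdgfa at 0.24 ± 0.31, Egfr at 0.51 ± 0.35 and Erbb3 at 1.19 ± 0.61 did not pass. The 7 oligodendrocyte precursor markers summed to 96.3 to 107 CPM in MEF and 1548 to 1606 CPM in NPC. All 7 had a count in both NPC libraries and in MEF replicate 1, and 5 reached 1 CPM in each NPC library. Sox10, which is among them, went the other way, at 3.51 and 0.629 CPM in MEF against 0.406 and 0.409 CPM in NPC. The part of such cells in these differences was not tested.

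By day 12 no gene passed between MEF and NPC. edgeR called 0% of 16188 genes, although 860 had an unadjusted p under 0.05. DESeq2 called 58 higher and 12 lower, and edgeR without the low-count filter called 215 higher and 17 lower. Among the 10 genes, Pdgfc differed most, with 1.32 and 2.77 CPM in MEF against 0.276 and 0.428 CPM in NPC (2.53 ± 0.67, adjusted p = 0.425). It passed with DESeq2 (adjusted p = 0.0456) and without the filter (0.00491). Egfr had 19.3 and 26.2 CPM in MEF against 8.01 and 13.4 CPM in NPC (1.11 ± 0.36, adjusted p = 0.573). Kitl differed by -0.02 ± 0.47 and Pdgfa by -0.03 ± 0.30.

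The day 12 cells differed from the pluripotent lines in the same 6 genes in both origins, with Kitl, Met, Egfr and Erbb3 higher and Pdgfc and Kit lower on day 12. Among all genes, 42.4% were called in MEF (23.1% higher and 19.3% lower) and 41% in NPC (21.1% higher and 19.9% lower), and the 2 comparisons share the lines. The lines group joins 2 different lines with 1 library each, so that its spread mixes line and library.

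Kit had 15.9 and 14.6 CPM in MEF day 12 cells and 17.4 and 27.7 CPM in NPC day 12 cells, against 416 CPM in R1_ESC (interval 407 to 426) and 222 CPM in SKM_iPSC (215 to 229). The log2 fold changes over the lines were -4.36 ± 0.60 (adjusted p = 0.000327) in MEF and -3.81 ± 0.43 (adjusted p = 6.58e-05) in NPC. The 7 melanocyte and neural crest markers summed to 60.1 CPM in R1_ESC and 64.4 CPM in SKM_iPSC, with 4 and 6 of the 7 having a count. The sum was mainly Mitf (37.5 and 59.5 CPM), Pmel (18.2 and 1.83 CPM) and Mlana (4.27 and 2.96 CPM), with Dct at 0 in both lines, and all day 12 sums were 2.32 to 3.43 CPM. Mast cell markers summed to 0.152 and 0.215 CPM. Pluripotency markers summed to 926 to 1077 CPM in MEF day 12 cells and 1101 to 1121 CPM in NPC day 12 cells, against 8203 CPM in R1_ESC and 6674 CPM in SKM_iPSC. Their part in the Kit difference was not tested.

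Pdgfc had 1.32 and 2.77 CPM in MEF day 12 cells and 0.276 and 0.428 CPM in NPC day 12 cells, against 33.6 and 37.3 CPM in R1_ESC and SKM_iPSC. The log2 fold changes were -4.08 ± 0.50 (adjusted p = 0.000145) in MEF and -6.62 ± 0.69 (adjusted p = 3.73e-05) in NPC. Kitl was the reverse, at 46.4 and 50.1 CPM in MEF and 43.4 and 55.4 CPM in NPC against 1.78 CPM in R1_ESC and 2.26 CPM in SKM_iPSC, with log2 fold changes of 4.61 ± 0.41 (adjusted p = 2.18e-05) and 4.62 ± 0.59 (adjusted p = 0.000139).

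Met was higher on day 12 than in the lines (4.83 and 6.08 CPM) by 3.48 ± 0.24 in MEF (adjusted p = 9.79e-06) and by 2.94 ± 0.33 in NPC (adjusted p = 5.85e-05). Egfr was higher than in the lines (2.59 and 1.56 CPM) by 3.48 ± 0.35 in MEF (adjusted p = 4.34e-05) and 2.37 ± 0.42 in NPC (adjusted p = 0.00114). Erbb3 was higher than in the lines (22.9 and 23.3 CPM) by 2.11 ± 0.48 in MEF (adjusted p = 0.00571) and 1.92 ± 0.42 in NPC (adjusted p = 0.00398). Pdgfa, at 84.0 CPM in R1_ESC and 79.7 CPM in SKM_iPSC, differed from day 12 by 0.21 ± 0.28 in MEF and 0.24 ± 0.30 in NPC. Pdgfrb had 3.71 CPM in R1_ESC (interval 2.91 to 4.67) and 0.430 CPM in SKM_iPSC (0.186 to 0.848), and did not pass against either day 12 group. Pdgfra had 0.508 and 1.02 CPM in R1_ESC and SKM_iPSC; MEF day 12 was higher at 2.47 ± 1.00, which missed the threshold (adjusted p = 0.0672), and DESeq2 placed it at 0.0112.

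**Figure D4:**
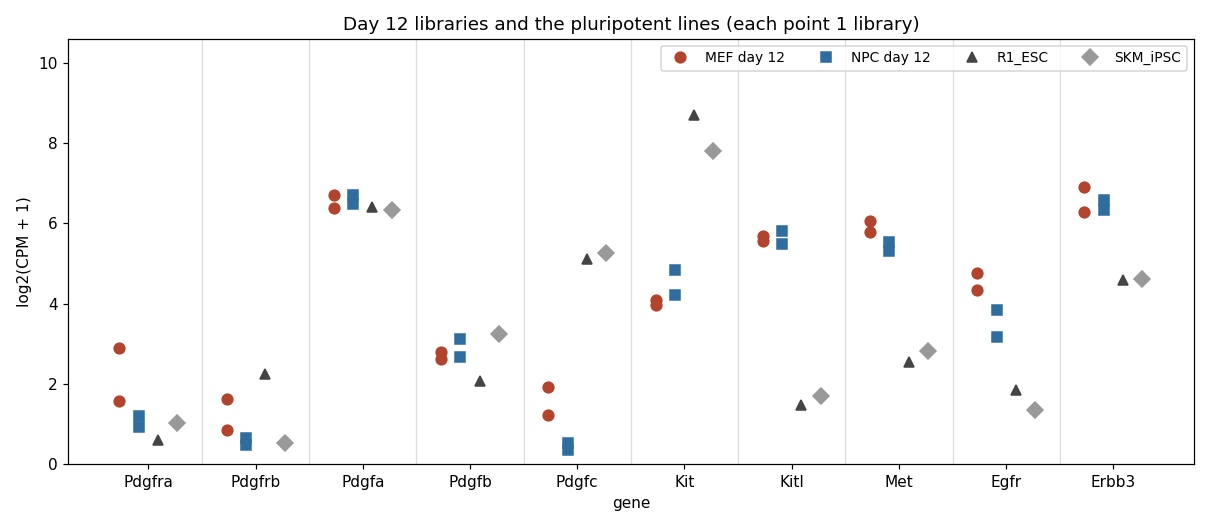
Transcript level on a log2(CPM + 1) axis of the 10 genes in MEF day 12, NPC day 12, R1_ESC and SKM_iPSC; each point is 1 library. Kit and Pdgfc are higher in the lines (416 and 222 CPM for Kit), Kitl, Met, Egfr and Erbb3 higher on day 12, and Pdgfa differs from the lines by 0.21 (MEF) and 0.24 (NPC) log2 units.

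Placed in order of mean CPM over the 12 origin, day and line groups, MEF day 0 was the highest group for Pdgfra, Pdgfrb, Pdgfc and Egfr, NPC day 0 for Kitl, MEF day 2 for Met, MEF day 4 for Pdgfa, MEF day 12 for Erbb3, NPC day 8 for Pdgfb and R1_ESC for Kit. Of 11 steps between neighbours in this order, the ranges of the libraries were separate in 3 for Pdgfra and Pdgfb, 4 for Pdgfa and 6 for Pdgfrb. Where the lines were neighbours that step was not counted, since each line has 1 library, and of the 10 steps left 3 were separate for Kitl and Met, 4 for Pdgfc and Erbb3 and 5 for Kit and Egfr. For Pdgfra the top 4 groups (MEF day 0, NPC day 4, NPC day 0 and MEF day 12) were not separated from each other by neighbouring steps, nor were the top 4 for Erbb3 (MEF day 12, MEF day 4, NPC day 4 and NPC day 12). For Kit both lines lay above every day group, and the run of NPC day 8, NPC day 2, MEF day 8, NPC day 12 and NPC day 4 held no separate step.

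Over the 12 group means of log2(CPM + 1), Pdgfra and Pdgfrb had a Pearson r of 0.94, Kit and Egfr of -0.88, Pdgfa and Erbb3 of 0.83, and Kit and Kitl of -0.60. These are descriptions of groups that share days and libraries. The genes most alike among 10749 candidates included Il1r1 and Svep1 for Pdgfra (r = 0.987 and 0.975), Mxra8, Mmp19 and Laptm4a for Pdgfrb (0.967 to 0.99), Ier5l, Dse and Reck for Pdgfc (0.975 to 0.979) and Pxdn, Nr2f2 and Pam for Egfr (0.971 to 0.979). They were Zfand1, Alpl and Wdr33 for Kit (0.951 to 0.978), Dusp4, Nrcam and Syt11 for Kitl (0.945 to 0.96), Klhdc1, Prkg2 and Mafk for Met (0.97 to 0.983) and Cyb561, F11r and Map2k7 for Erbb3 (0.951 to 0.954). For Pdgfa they were Cops7a, Uqcrc2 and Ybx3 (0.941 to 0.958), and for Pdgfb, Igfbp2, Cadm4 and Ralgps2, with lower values (0.832 to 0.85).

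Of the other PDGF and class III or VEGF family receptors and ligands, none was called higher on day 2. In MEF, 8 of 11 tested were lower on day 2 and 0 higher, with a median log2 fold change of -4.04 against -0.03 over all genes, where 24.1% of genes were called lower. They included Pdgfrl, a PDGF receptor-like gene, at -6.14 ± 0.99 (adjusted p = 0.000697), Csf1r, the macrophage colony-stimulating factor receptor, at -5.09 ± 0.89 (adjusted p = 0.00109), and Kdr at -5.08 ± 1.43 (adjusted p = 0.014). Kdr rested on low values, at 0.0551 and 0.144 CPM on MEF day 2 against 2.04 and 4.63 CPM on MEF day 0. Csf1r had 0.937 and 0.818 CPM on day 2 against 19.9 and 34.4 CPM on day 0, and macrophage markers, which include Csf1r, summed to 15.3 to 30.4 CPM on day 2 and 289 to 453 CPM on day 0; their part was not tested. In NPC, 5 of 10 tested were lower and 0 higher (median -1.29 against 0.04, 17.3% of genes lower). Flt4 was at -4.01 ± 0.64 (adjusted p = 0.000925), Kdr at -3.97 ± 1.12 (adjusted p = 0.0174) and Vegfb, a vascular growth factor, at -3.72 ± 0.44 (adjusted p = 0.000153). Kdr, next to Kit on chromosome 5, had 0.236 and 5.91 CPM on NPC day 2 against 41.9 and 53.4 CPM on NPC day 0, while Kit was not called.

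Of the EGF family, 2 of 10 tested were higher and 4 lower in MEF on day 2 (20.9% and 24.1% of all genes), and 1 of 11 higher and 2 lower in NPC (18.2% and 17.3% of all genes). Tgfa, an Egfr ligand, was higher in both, at 2.65 ± 0.83 in MEF (adjusted p = 0.0236) and 1.29 ± 0.41 in NPC (adjusted p = 0.0309). Ereg, another Egfr ligand, had 0.221 and 1.25 CPM on MEF day 2 against 39.2 and 110 CPM on MEF day 0 (-6.76 ± 0.97, adjusted p = 0.000372). Nrg2, a neuregulin, was higher in MEF at 2.48 ± 0.76 (adjusted p = 0.0213). In NPC, Erbb4, a neuregulin receptor, was at -3.62 ± 1.04 (adjusted p = 0.0213) and Hbegf at -1.49 ± 0.38 (adjusted p = 0.0109).

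Among 6 genes around Met tested in MEF, 4 were higher and 2 lower on day 2 (median 3.16), where 20.9% of all genes were higher. Among 5 tested in NPC, 4 were higher and 0 lower (median 3.41), where 18.2% of all genes were higher. On day 12 against day 0, 5 were higher and 1 lower in MEF, and 5 of 5 higher in NPC, where 26.9% and 24.7% of all genes were higher. Hgf, the Met ligand, had 0 and 0.241 CPM on MEF day 2 against 11.6 and 5.61 CPM on MEF day 0 (-6.17 ± 1.30, adjusted p = 0.00383). St14, which encodes the protease matriptase, had 24.1 and 22 CPM on MEF day 2 against 1.78 and 2.00 CPM on MEF day 0 (3.46 ± 0.23, adjusted p = 9.13e-06). Mst1, an Hgf-like ligand, was higher in MEF at 3.63 ± 0.69 (adjusted p = 0.00177) and in NPC at 4.23 ± 1.03 (adjusted p = 0.00869), at levels of 0.755 to 1.40 CPM on day 2. In NPC, its receptor Mst1r had 9.86 and 13.6 CPM on day 2 against 0.135 and 0.182 CPM on day 0 (6.15 ± 0.48, adjusted p = 1.14e-05), and Spint2, an inhibitor of such proteases, was at 3.41 ± 0.34 (adjusted p = 5.92e-05).

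Of the shared adaptors and transducers tested in MEF, 1 of 30 was higher and 13 lower on day 2 (median -0.57), and in NPC 2 were higher and 6 lower (median -0.25). Over all genes 20.9% were higher and 24.1% lower in MEF, and 18.2% and 17.3% in NPC, so that the NPC count of lower genes lies near that share. Src, a cytoplasmic kinase, had 5.62 and 12.4 CPM on MEF day 2 against 77.7 and 129 CPM on MEF day 0 (-3.67 ± 0.42, adjusted p = 0.000114), and was at -2.57 ± 0.41 in NPC (adjusted p = 0.000873). The adaptor Gab2 was lower in both, at -2.12 ± 0.72 in MEF (adjusted p = 0.0336) and -1.85 ± 0.51 in NPC (adjusted p = 0.0154). Stat3 was lower in MEF at -1.73 ± 0.25 (adjusted p = 0.000366), and Pik3r1, a PI3K regulatory subunit, in NPC at -1.85 ± 0.51 (adjusted p = 0.0167).

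Of 12 receptor downregulators, 0 were higher and 5 lower in MEF on day 2, and 0 higher and 3 lower in NPC, against 24.1% and 17.3% of all genes lower. Errfi1, a feedback inhibitor of Egfr, had 17.6 and 16.3 CPM on MEF day 2 against 392 and 98.7 CPM on MEF day 0 (-4.00 ± 0.61, adjusted p = 0.000539). Lrig3 and Sh3kbp1 were lower in MEF at -2.24 ± 0.48 (adjusted p = 0.00323) and -2.05 ± 0.38 (adjusted p = 0.00149). In NPC, Lrig1, a negative regulator of ERBB receptors, was at -1.91 ± 0.35 (adjusted p = 0.00197), the phosphatase gene Ptprj at -1.24 ± 0.43 (adjusted p = 0.0421) and the ubiquitin ligase gene Cblb at -1.13 ± 0.34 (adjusted p = 0.0239).

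**Figure D5:**
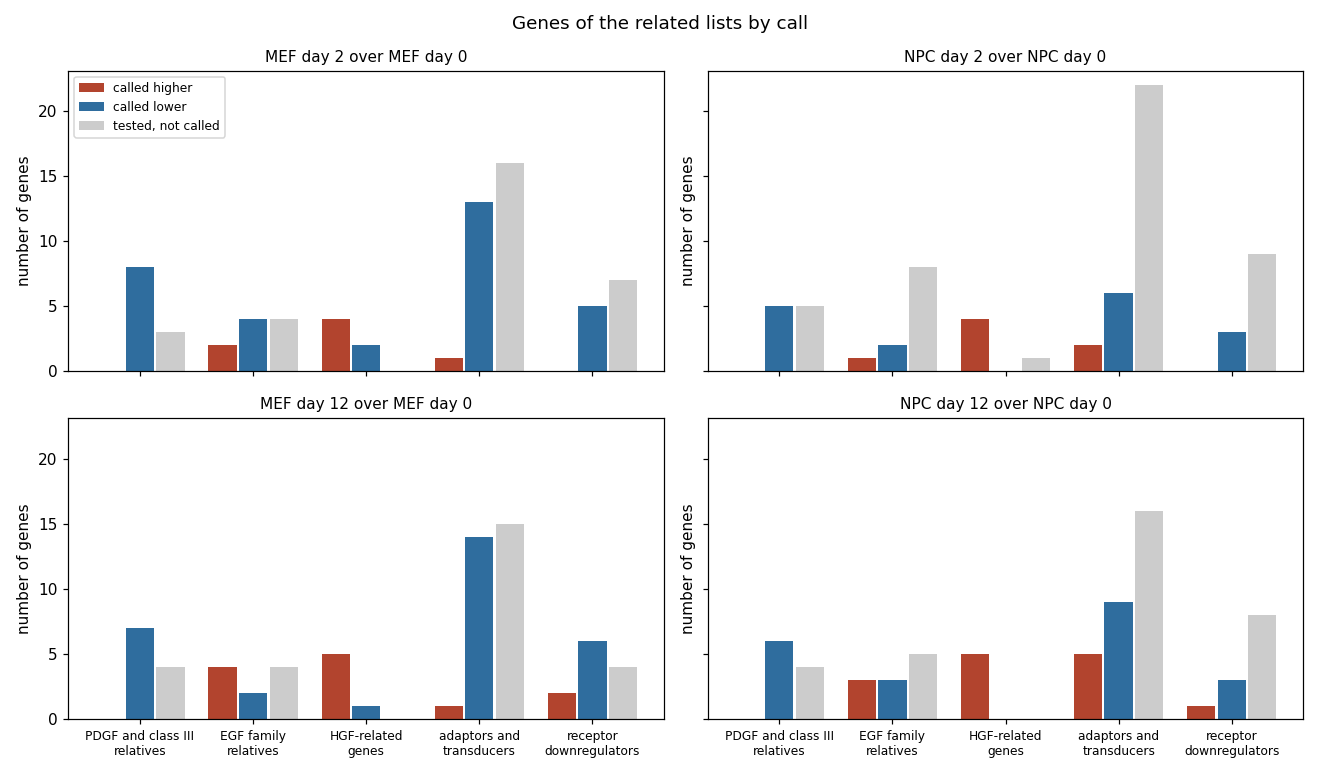
Number of genes called higher, called lower, or tested and not called in 5 lists of related genes, for day 2 over day 0 (top) and day 12 over day 0 (bottom) in MEF (left) and NPC (right). No PDGF or class III relative is called higher in these panels, and HGF-related genes are mostly called higher.

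The authors' deposited table gives its own fold changes and adjusted p-values for the day comparisons. At an adjusted p under 0.05 in the authors' deposited table, 5 of the 10 genes were called in MEF day 2 over day 0 and 7 in NPC, and 6 and 7 in day 12 over day 0. In the authors' deposited table, MEF day 2 over day 0 was 1.69 for Met (adjusted p = 0.344), 1.78 for Pdgfa (adjusted p = 0.39) and -1.92 for Egfr (adjusted p = 0.173), log2 values near those fitted here but not called. The authors' deposited table listed Pdgfra NPC day 4 over day 2 at 0.37 (adjusted p = 1), and called NPC day 12 over day 0 at -2.82 (adjusted p = 0.000542), which the fit over all NPC and line libraries here did not call (-2.72, adjusted p = 0.117).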

How the data were processed

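RNA-seq was analysed in 22 of 33 samples. The authors deposited raw counts per gene, and beside them a log2 fold change with its adjusted p-value for each day comparison, later over earlier. Per the submitters' processing notes, reads were checked with FastQC and aligned with STAR 2.5.1b to mm9; the counting tool, annotation and use of strand are not given in the sources used here. Per the labels' protocols, libraries were made with a NEBNext Ultra RNA kit. Rows with no gene symbol (0.6% to 1.413% of counts) stayed in the fits.

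Counts were tested with edgeR 4.0.16 (quasi-likelihood, TMM, limma 3.58.1, R 4.3.3), keeping genes that reached 1 CPM in 2 or more libraries. Each origin was fitted with its 5 day groups and the 2 lines as 1 group, and MEF was set against NPC in a joint fit of all 22 libraries. p-values were adjusted by Benjamini-Hochberg over all genes tested, and a call is an adjusted p under 0.05. Standard errors are the absolute fitted change over the square root of F. The scripts were tested on simulated data. Alternatives were RLE and upper quartile scaling, no filter, at least 5 CPM, DESeq2 1.42.0, only the groups compared, the joint fit, a replicate block and each library left out; the fits without the feeder library in comparisons that do not include it were chosen after seeing the data. Likeness was Pearson's r of log2(CPM + 1). Poisson intervals cover counting error only.

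The genes and lists were chosen with earlier results of these data known. All 10 genes were named, with, per list, up to 3 called genes of largest change on day 2 in each origin, and the 3 genes most alike to each, of which 1 is not reported here. Nothing in the labels says that replicates came from separate cultures, so p-values measure only the spread between these samples, which may be technical. The deposited column for SKM_iPSC carries another clone name and was matched as the remaining line. ChIP peak lists were not analysed here. RefSeq windows for Pdgfrb, Pdgfb and Erbb3 are not shown.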

Additional observations from a re-analysis of the deposited data

Results flagged for a closer look

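The log2 response of Kit on day 2 was called different between origins. The MEF response minus the NPC response was 3.20 ± 0.91 log2 units (SE; adjusted p = 0.0397, edgeR interaction term). Kit had 7.94 and 2.31 CPM on MEF day 2 against 0.458 and 0.0572 CPM on MEF day 0, and 17.9 and 28.2 CPM on NPC day 2 against 11.6 and 11.5 CPM on NPC day 0. All 4 day 2 libraries lay above the day 0 libraries of their origin. The MEF day 0 libraries held 9 counts and 1 count, and the difference was 5.29 without replicate 1 and 2.43 without replicate 2 (adjusted p = 0.022 and 0.173). It was lowest, at 2.06, without MEF day 2 replicate 1 (adjusted p = 0.217). Of the 8 fits that left out a library of the 4 groups, 6 lost the call. DESeq2 gave 3.18 (adjusted p = 0.0041), and the fit of only the 4 groups gave 3.23 (adjusted p = 0.136).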

How the results depend on the processing

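The alternatives were checked for the 10 genes and not for single genes of the related lists. Of 150 pairs of gene and comparison, 63 were called. Of these, 43 were called in every fit that left out a library, 54 under every other alternative and 43 under both, and 23 of the 87 pairs not called passed under some alternative. The called value that reversed was Pdgfra in NPC day 8 over day 4, at 0.74 without the feeder library. Leaving out each library of that comparison gave -5.58 to 0.74. Pdgfrb, which was not called in the same comparison, also changed sign without the feeder library. For NPC day 4 over day 2, edgeR called 0 of the 10 genes, against 1 with RLE scaling, 3 without the filter, 3 with DESeq2 and 2 in the joint fit. Without the filter, 2 were called in MEF day 12 over day 8, 1 in NPC day 12 over day 8, 1 between MEF and NPC on day 12 and 2 in the difference of responses. DESeq2 called 1 between MEF and NPC on day 12 and 2 in the difference of responses, where fitting only the groups compared called 0. The cause of these changes was not tested.

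With each library left out in turn, the number called was 8 to 9 in MEF day 2 over day 0, 0 to 3 in MEF day 4 over day 2, 0 to 2 in MEF day 8 over day 4, 0 to 1 in MEF day 12 over day 8, 7 to 8 in MEF day 12 over day 0 and 6 to 7 in MEF day 12 over the lines. In NPC it was 4 to 8, 0 to 2, 2 to 4, 0 to 2, 6 to 8 and 6 to 6 in the same order of comparisons. Between MEF and NPC it was 5 to 7 on day 0, 0 to 0 on day 12 and 0 to 1 for the difference of responses.

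Correlations of same-numbered deviations ran from -0.0232 to 0.415 in MEF and from -0.0609 to 0.595 in NPC and were over 0.1 in 10 of 16 pairs of groups, not in all, so the samples were treated as sharing only a number. MEF day 4 has replicates 1 and 3, and number 3 occurs in no other group, so with the block MEF day 4 rests on replicate 1. Its comparisons therefore say nothing about pairing. MEF day 4 over day 2 was then 1.68 for Pdgfb, -1.07 for Pdgfc and 1.87 for Erbb3. MEF day 8 over day 4 was -1.14 for Pdgfa, 2.70 for Kit, 1.45 for Kitl and -1.10 for Egfr. The count of 54 above includes these fits. In the other comparisons the block gained Kitl in MEF day 2 over day 0, Kit in NPC day 2 and day 12 over day 0, and Kitl in NPC day 12 over day 8. It lost Met in MEF day 12 over day 0 and Pdgfra in NPC day 8 over day 4. With the block, the Kit difference of responses was 3.21 (adjusted p = 0.047). The median change of all genes was 0.104 in MEF and 0.133 in NPC day 12 over day 0 with TMM, and -0.146 in NPC day 8 over day 4 with upper quartile scaling. The alternatives for peak windows, peak thresholds and peak replicates were not run. Depth limits Pdgfra, Pdgfrb and Pdgfc after day 0 and Kit on MEF day 0, where values rest on few counts.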
